A study of Mus musculus with 12 samples.

Results

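Zebrin stripes are the parasagittal bands into which the Purkinje cells of the cerebellar cortex fall, and they are named after an antigen that was later identified as aldolase C, the brain aldolase encoded by Aldoc. Purkinje cells in zebrin-positive bands carry much aldolase C and also the glutamate transporter EAAT4 and phospholipase C beta 3, while those in zebrin-negative bands carry more phospholipase C beta 4 and neuroplastin. Aldolase C is also made by astrocytes and by Bergmann glia, the radial glia that surround Purkinje cell bodies and dendrites. The 10 genes described here are Aldoc, Slc1a6, Gabbr2, Gabbr1, Kctd12, Plcb3, Ebf1, Ebf2, Prkcd and Sphk1. They were chosen by symbol as stripe genes or as partners of stripe genes, and they are 10 of 43346 annotated genes in the deposited tables.

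RNA was measured in 12 Smart-seq libraries from 1 mouse, a male B6CASTF1/J hybrid of Castaneus and C57Bl6 aged 14 months. Parasagittal tissue from it gave 13 Purkinje cells, which were excised and homogenised as 1 pool. Each library received 1 cell-equivalent of pooled RNA longer than 200 bases, with ERCC spike-in RNA. The libraries carry technical replicate numbers 1 to 6 and 8 to 13 and are named by them here. Cells of both band types could have entered the pool, and the libraries cannot tell them apart, so no comparison of zebrin-positive with zebrin-negative cells was possible. All libraries belong to 1 group with no treatment and no control, and p-values below measure only the spread between splits of that pool.

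Total expected counts, which are estimated read numbers, lay between 15167400 and 27806000 per library. Gene counts per ERCC count were 15.3 to 19.9 in libraries 1, 4 and 13 and 5.86 to 9.83 in the other 9, so these 3 libraries stood apart. All 14 Purkinje marker genes had counts in every library, and their summed level was 21416 to 37277 TPM (a share of all transcripts in the library, scaled by transcript length). Markers of other cells were present too. Bergmann glia and astrocyte markers, of which 10 of 12 had counts in every library, summed to 1943 to 4629 TPM, those of granule cells to 86.0 to 801 TPM and those of oligodendrocytes to 91.3 to 375 TPM. Markers of interneurons summed to 1.25 to 106 TPM, of microglia to 0 to 462 TPM and of endothelial and mural cells to 0 to 290 TPM, with C1qc, Fcer1g, Acta2 and Cldn5 at 0 in all 12. The part of these cells in the results below was not tested, and fewer cells of a type and less RNA per cell cannot be told apart in a pool.

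The stripe genes spanned a wide range of levels. Aldoc was far above the others, with a mean of 1959 ± 464 TPM (SD, n = 12, as for all means below), and it ranked 39 among all annotated genes by mean TPM. Gabbr1, Gabbr2, Slc1a6, Ebf1 and Ebf2 formed a middle range with means of 130 ± 70.8, 65.1 ± 30.8, 49.3 ± 50.8, 37.6 ± 22.4 and 34.2 ± 24.8 TPM, in that order. Kctd12, Prkcd, Sphk1 and Plcb3 were low, with means of 6.29 ± 9.98, 5.22 ± 12.1, 4.78 ± 6.17 and 2.65 ± 6.42 TPM, in that order. The SD exceeded the mean for Slc1a6 and for each of the 4 low genes. All 10 genes had a mean of at least 1 TPM, which 28.1% of annotated genes reached.

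**Figure D1:**
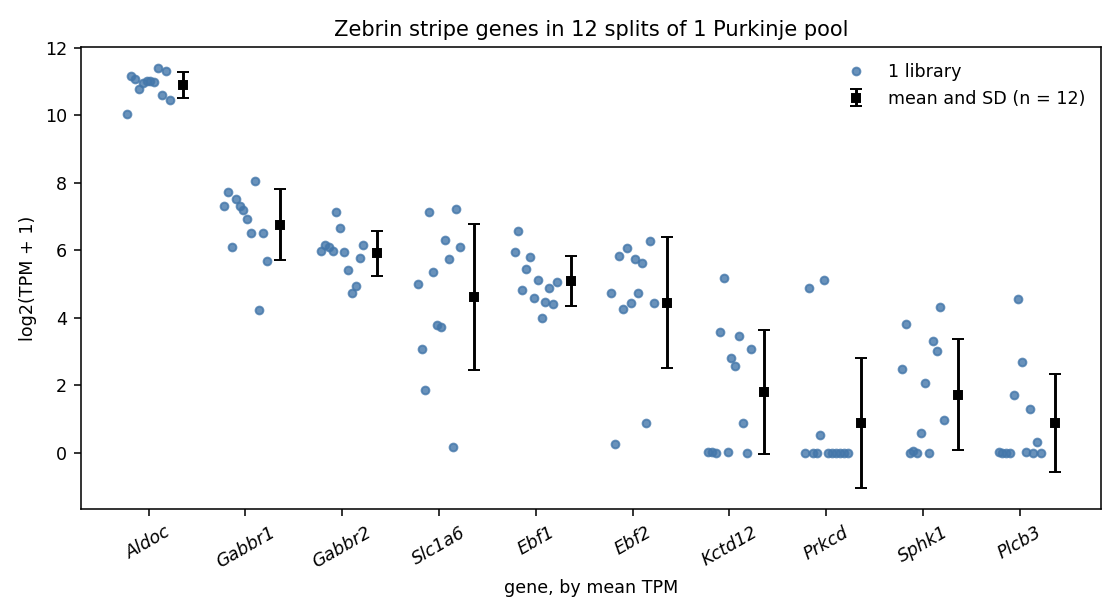
Levels of the 10 stripe genes as log2(TPM + 1), with 1 blue point per library and the mean and SD over 12 libraries in black; the lower SD bars of the 4 low genes pass below 0 or close to it, although the scale has no values below 0. Aldoc stood above all other genes in every library, and Slc1a6, Ebf2 and the 4 low genes were widely spread.

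The order was tested within libraries. For each pair of genes the difference in log2(TPM + 1) was taken in every library, and its mean was tested by an exact permutation of the signs (two-sided), which can give no p below 0.000488. Adjusted p-values are by the Benjamini-Hochberg method over 53 pairs, 45 among the stripe genes and 8 with a related gene. Of the 45 pairs, 35 differed at an adjusted p under 0.05, and in 21 of these the same gene was higher in all 12 libraries. Pairs of other annotated genes were not tested in this way, so the count is not shown to be particular to stripe genes. Among the 9 pairs of neighbours in the order of mean TPM, 3 differed and 6 did not pass.

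Aldoc exceeded Gabbr1 by 4.14 ± 1.00 on the log2 scale in 12 of 12 libraries (adjusted p = 0.000995, exact permutation test). Gabbr1 exceeded Gabbr2 by 0.84 ± 1.08 in 10 of 12 (adjusted p = 0.0189, exact permutation test), and Ebf2 exceeded Kctd12 by 2.64 ± 2.18 in 11 of 12 (adjusted p = 0.00178, exact permutation test). The stretch from Gabbr2 to Ebf2 held no neighbours that differed, nor did the stretch from Kctd12 to Plcb3. Among pairs in the first stretch that were not neighbours, Gabbr2 exceeded Ebf1 by 0.82 ± 0.73 in 11 of 12 libraries (adjusted p = 0.00665, exact permutation test). Gabbr2 also exceeded Ebf2, by 1.47 ± 1.91 in 10 of 12 (adjusted p = 0.0146, exact permutation test). Slc1a6 minus Ebf2 was 0.18 ± 1.98 and did not pass (adjusted p = 0.781, exact permutation test). Gabbr2 minus Slc1a6 was 1.29 ± 2.18 (adjusted p = 0.0863, exact permutation test), and Ebf1 minus Ebf2 was 0.65 ± 2.35, with 6 libraries on either side (adjusted p = 0.450, exact permutation test). The sign depended on the scale for Slc1a6 minus Ebf1, where the mean TPM was higher for Slc1a6 and the mean log2 difference was -0.47 ± 2.39 (adjusted p = 0.539, exact permutation test). The same held for Prkcd minus Sphk1, with a log2 difference of -0.84 ± 2.40 (adjusted p = 0.297, exact permutation test). The neighbours that did not pass were not ordered at this precision, which does not show that their levels were alike.

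Aldoc, which encodes a glycolytic enzyme that splits fructose 1,6-bisphosphate, lies at chr11:78322968-78327781 on the plus strand of mm10. Its level was 1045, 2264, 2169, 1743, 1989, 2078, 2063, 2019, 2671, 1548, 2529 and 1394 TPM in libraries 1, 2, 3, 4, 5, 6, 8, 9, 10, 11, 12 and 13, the order used for all lists by library below. Library 1 was lowest and library 10 highest, and the median was 2041 TPM. The expected counts behind these values were 23186 to 100952. Aldoc made up 85.3 ± 5.24% of the summed TPM of the 10 genes, from 75.4% in library 1 to 94.8% in library 11. In the 3 libraries with many gene counts per spike-in count Aldoc was 1045 to 1743 TPM, against 1548 to 2671 TPM in the other 9. The deposited TPM include the spike-ins. Over annotated genes alone Aldoc was 1132 to 1937 TPM in those 3 libraries, against 1992 to 3402 TPM in the other 9, and the 2 ranges did not overlap. These sets were drawn from the data, and this difference was not tested. The share of all annotated genes whose ranges also stood apart was not counted, so the separation is not shown to be particular to Aldoc.

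Aldoc has 6 annotated transcripts from more than 1 start. Aldoc-201 begins at position 78322968 and Aldoc-202 at position 78324200, 1232 bases downstream. RefSeq places starts near both, and the 2 windows below run from 250 bases before to 50 bases after them in GRCm38.p6. They are shown because the estimated transcript levels differ between the 2 starts. Capitals mark a match to CCCNNGGG, the core of the site that EBF factors are known to bind.
Aldoc upstream start, chr11:78322823-78323122, plus strand: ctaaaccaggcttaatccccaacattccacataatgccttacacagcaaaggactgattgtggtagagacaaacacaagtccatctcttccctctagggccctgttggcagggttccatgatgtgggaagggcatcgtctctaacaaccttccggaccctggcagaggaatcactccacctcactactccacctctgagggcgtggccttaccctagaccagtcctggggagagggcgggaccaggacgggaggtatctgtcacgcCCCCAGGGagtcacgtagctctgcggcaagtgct
Aldoc downstream start, chr11:78323948-78324247, plus strand: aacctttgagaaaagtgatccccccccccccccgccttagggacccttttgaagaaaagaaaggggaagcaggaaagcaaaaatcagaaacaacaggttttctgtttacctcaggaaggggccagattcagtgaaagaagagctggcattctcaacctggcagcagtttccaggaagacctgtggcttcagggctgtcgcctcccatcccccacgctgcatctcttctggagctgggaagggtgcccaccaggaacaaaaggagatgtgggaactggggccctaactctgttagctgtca
Aldoc-202 averaged 1545 ± 435 TPM and Aldoc-201 52.8 ± 37.4 TPM. The log2 difference was 5.03 ± 0.64, and Aldoc-202 was higher in 12 of 12 libraries. Aldoc-206, a short processed transcript from within the gene, averaged 361 ± 236 TPM and lay between 1.90 TPM in library 11 and 871 TPM in library 10. Reads in shared exons are divided between transcripts by estimation, so these shares carry an error that the libraries do not show.

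The EBF core is a description of letters and not of binding. CCCNNGGG is its own reverse complement, so 1 search covered both strands. It occurred in 3 of the 16 RefSeq windows that matched 9 of the genes, all but Ebf2, 1 each for Aldoc, Slc1a6 and Prkcd, and in 13.7% of 32851 mouse windows of the same kind. With a T added before and an A after it, the site occurred in 0 of the 16 windows and in 0.904% of all. TATAAA on either strand occurred in 2 of the 16 and in 13.6% of all.

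**Figure D2:**
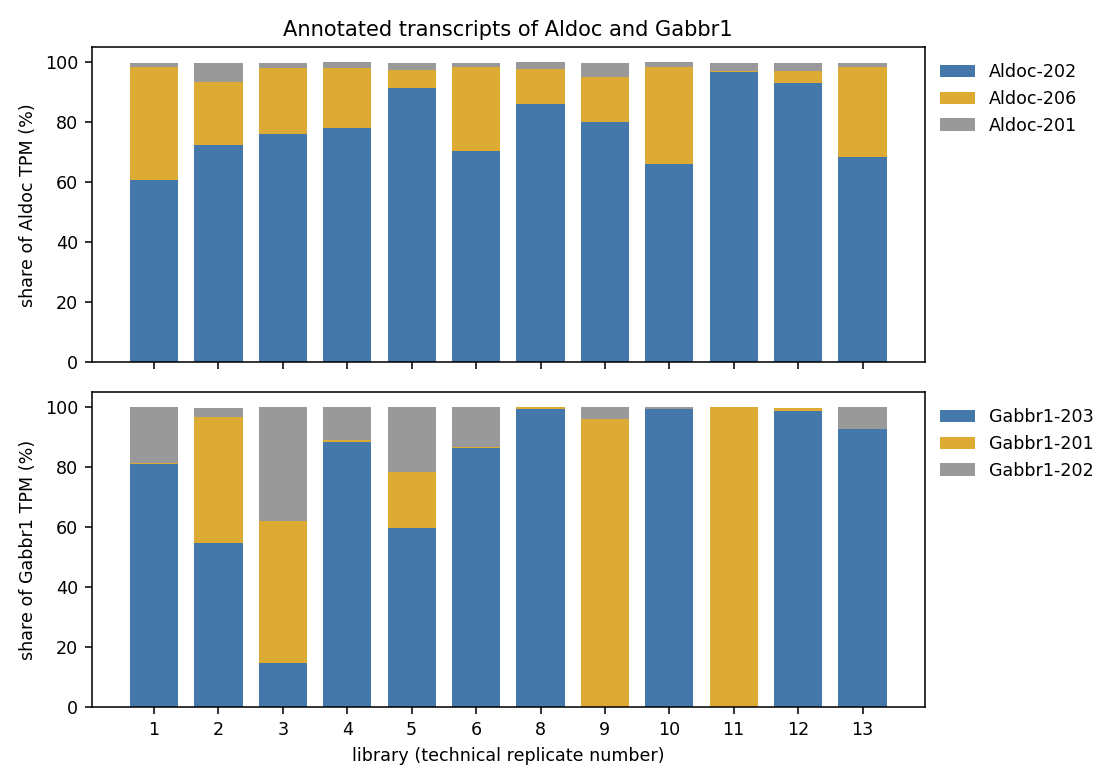
Share of the gene's TPM, in percent, held by the 3 leading annotated transcripts of Aldoc (top) and Gabbr1 (bottom), 1 bar per library. Aldoc-202 held the largest part in all 12 libraries, while Gabbr1-203 led in 9 libraries and Gabbr1-201 in libraries 3, 9 and 11.

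Aldoc was set beside a close relative and beside a gene of the opposite band type. Aldoa, the aldolase of muscle and most other tissues, averaged 1367 ± 463 TPM and lay below Aldoc in 12 of 12 libraries. The log2 difference Aldoc minus Aldoa was 0.56 ± 0.33 (adjusted p = 0.000995, exact permutation test). Plcb4, the phospholipase of zebrin-negative cells, averaged 320 ± 70.2 TPM, and Aldoc exceeded it by 2.60 ± 0.50 in 12 of 12 libraries (adjusted p = 0.000995, exact permutation test). Nptn, which encodes neuroplastin, averaged 1676 ± 579 TPM. Hspb1, a small heat shock protein found in a subset of zebrin-positive cells, was at 0 in all 12 libraries. A count of 0 is taken to allow up to 3 counts, which is 0.124 to 0.219 CPM of a library's gene counts. PCR reads without molecular identifiers are not independent molecules, so this limit covers counting error only.

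Because Aldoc is made by both Purkinje cells and Bergmann glia, its level was related to the summed markers of both over the 12 libraries. With Purkinje markers Pearson's r was 0.685 and Spearman's rho 0.734 (adjusted p = 0.0445 for each, permutation test, 8 coefficients in the family). Libraries 10 and 12 were high in both measures and libraries 1, 4 and 13 low in both. Libraries 4 and 13 lay farthest from the median marker sum on the log2 scale. Without them r was 0.654 (adjusted p = 0.0540 over the r values only, permutation test), and the call was lost. It was also lost in 8 of the 12 runs that left out 1 library each, where r was 0.629 to 0.733. Within the 9 libraries with fewer gene counts per spike-in count r was 0.491 and rho 0.517 (adjusted p = 0.240 for each, permutation test), so the relation did not pass there. The 3 remaining libraries were too few for a value. All levels are shares of 1 library total, which ties the 2 measures together. The Purkinje sum is also weighted to its highest markers. Pcp4, Pcp2, Gng13 and Pvalb averaged 7724, 7156, 5459 and 3635 TPM, against a mean sum of 28745 TPM.

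With the Bergmann glia and astrocyte markers r was -0.151 (adjusted p = 0.847, permutation test) and rho -0.336 (adjusted p = 0.771, permutation test). That value rested on library 1, which was lowest in both Aldoc and the glial sum. Without library 1, r was -0.781 (adjusted p = 0.0399, permutation test). Without the 2 libraries farthest on the marker axis, 1 and 12, r was -0.736 (adjusted p = 0.0540 over the r values only, permutation test), which did not pass. Within the 9 libraries r was -0.649 and rho -0.550 (adjusted p = 0.240 for each, permutation test).

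**Figure D3:**
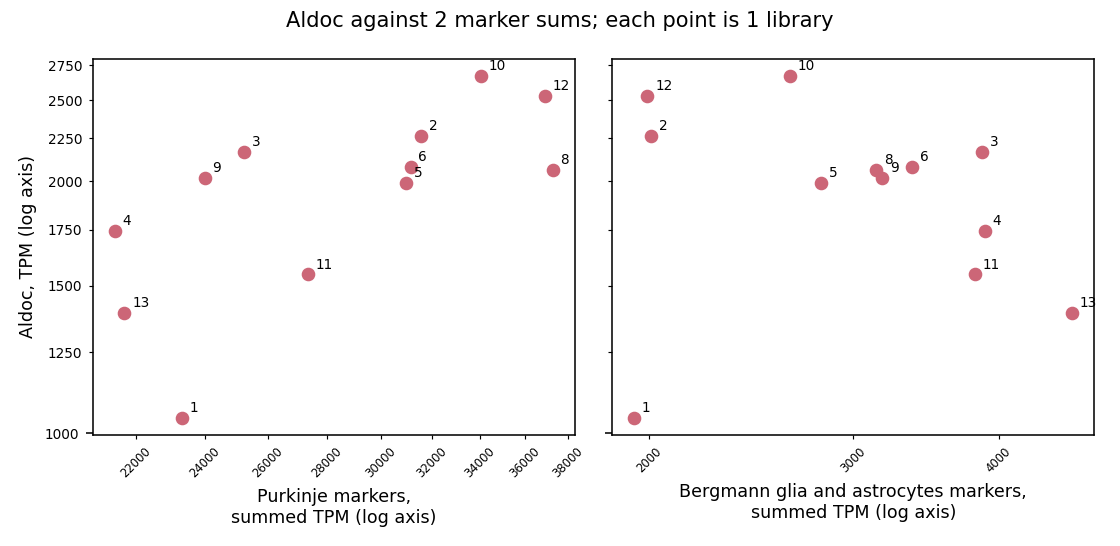
Aldoc level in TPM against the summed TPM of Purkinje markers (left) and of Bergmann glia and astrocyte markers (right), both on log axes, with 1 numbered point per library. Aldoc tended to be higher where Purkinje markers were higher (r = 0.685), and library 1 lay apart from the other 11 in the right panel.

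The 5 genes whose TPM over the 12 libraries was most like that of Aldoc, among 1144 genes with a mean of at least 100 TPM, were taken as a description. They were Mrpl34 (rho 0.874), the Purkinje genes Homer3 and Pcp2 (rho 0.832 each), Gapdh (rho 0.818) and Gm1821 (rho 0.811). Over all 1144 genes rho ran from -0.874 to 0.874 with a median of 0.105, and all points share libraries and depth. Not all Purkinje genes were near the top, as the marker Calb1 had rho 0.406 and Plcb4 -0.021. Gapdh has many near-identical copies in the genome, so its estimated counts are uncertain. Among the other 9 stripe genes the rho with Aldoc ran from -0.427 for Ebf1 to 0.371 for Ebf2. With TPM over annotated genes alone it ran from -0.294 for Ebf1 to 0.420 for Ebf2, and for Slc1a6 it was 0.021 with the deposited TPM and -0.077 over annotated genes alone.

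Slc1a6 encodes EAAT4, the Purkinje cell glutamate transporter whose level follows the zebrin bands. It lies at chr10:78780496-78814765 on the plus strand. Its level was 31.1, 7.41, 2.63, 138, 39.9, 12.9, 12.2, 78.5, 52.1, 0.130, 149 and 67.7 TPM by library. Libraries 4 and 12 were highest, and together they held 48.5% of the sum over libraries. Library 11 was lowest, with 4 expected counts against 7433 in library 12. Its relation with the Purkinje markers (r = -0.107) and with the glial markers (r = -0.191) did not pass the test (adjusted p = 0.847 for each, permutation test). Within the 9 libraries r was 0.355 and -0.585 with the 2 sums (adjusted p = 0.395 and 0.240, permutation test).

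Other glutamate transporters were measured beside it. Slc1a3 (GLAST) averaged 882 ± 429 TPM, and Slc1a6 minus Slc1a3 was -5.01 ± 2.32 on the log2 scale, with Slc1a6 lower in 12 of 12 libraries (adjusted p = 0.000995, exact permutation test). Slc1a2 (GLT-1), the main astrocyte transporter of the forebrain, averaged 44.6 ± 22.7 TPM. Slc1a6 minus Slc1a2 was -0.72 ± 2.55, and each was higher in 6 libraries (adjusted p = 0.400, exact permutation test). Slc1a1 averaged 2.46 ± 5.77 TPM and Slc1a7 was at 0 in all libraries. In all, 4 of these 5 transporters reached a mean of 1 TPM and 3 had counts in every library, as 8.46% of all annotated genes did.

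Gabbr1 and Gabbr2 encode the subunits that pair to form the GABAB receptor, the G protein-coupled receptor for GABA; Gabbr1 binds GABA and Gabbr2 couples to the G protein. Gabbr2 (chr4:46662305-46991873, minus strand) was 61.8, 70.1, 66.7, 61.9, 140, 99.7, 60.2, 41.9, 25.9, 29.4, 52.99 and 70.6 TPM by library, highest in library 5. Gabbr1 (chr17:37045966-37075067, plus strand) was 158, 208, 67.7, 183, 158, 145, 121, 91.0, 266, 17.7, 89.8 and 49.99 TPM by library, highest in library 10 and lowest in library 11. Library 10 held the highest Gabbr1 and the lowest Gabbr2. In libraries 11 and 13 Gabbr1 lay below Gabbr2.

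Gabbr1 is known to be transcribed from separate starts that give receptor forms with different N-termini. Of its 11 annotated transcripts, Gabbr1-203, which starts at position 37050631, averaged 96.1 ± 76.2 TPM. Gabbr1-201, which starts 4665 bases upstream of it, averaged 21.4 ± 33.0 TPM. The libraries were split between them. Gabbr1-203 led by TPM in 9 libraries, and in libraries 8, 10 and 12 it held 99.6%, 99.5% and 98.8% of the gene's TPM. Gabbr1-201 led in libraries 3, 9 and 11, with 47.3%, 96.0% and 100% of the gene's TPM, and Gabbr1-203 was at 0 in libraries 9 and 11. By estimated count Gabbr1-203 led in 8 libraries. Gabbr2-201, by contrast, led in all 12 libraries with 96.8 ± 8.30% of the Gabbr2 TPM.

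Kctd12 encodes an auxiliary subunit that binds the GABAB receptor and speeds its desensitisation. Gene coordinates were chr14:102976581-102982637 on the minus strand. Kctd12 was 35.1 TPM in library 5, the highest, with a median of 2.88 TPM and 0 in libraries 3 and 12. Of the level in library 5, 20.8 TPM was assigned to Kctd12-201, a short processed transcript, on 122.9 counts. The protein-coding Kctd12-202 held 14.3 TPM there. By expected count library 10 was higher than library 5, with 1582 against 1267. Kctd12 had at least 50 counts in 7 libraries, and in libraries 1, 2 and 6 it had 1 or 2 counts. The relative Kctd16, another auxiliary subunit, was at 0 in all libraries, so no difference between them could go the other way and no test is given; Kctd12 had counts in 10 libraries. Of the 14 genes of the receptor complex and its effectors, 11 reached a mean of 1 TPM and 6 had counts in every library. The highest were the G protein subunit Gnao1 (136 ± 57.5 TPM), Gabbr1, the potassium channel subunit Kcnj3 (77.8 ± 51.9 TPM) and Gabbr2, and the lowest measured was the channel subunit Kcnj6 (0.208 ± 0.719 TPM).

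Plcb3 and Plcb4 encode the phospholipases that act after the metabotropic glutamate receptor mGluR1 in Purkinje cells of opposite bands. Plcb3 (chr19:6952325-6976470, minus strand) was 22.4 TPM in library 6 and 5.46 TPM in library 8, and its median over 12 libraries was 0.01 TPM. It had at least 50 counts in 4 libraries, numbers 5, 6, 8 and 10, and 0 counts in 5. Plcb4 was 208 to 496 TPM and higher in 12 of 12 libraries. Plcb3 minus Plcb4 was -7.41 ± 1.55 on the log2 scale (adjusted p = 0.000995, exact permutation test). Of the 12 genes of the cascade, 11 reached a mean of 1 TPM and 10 had counts in every library. The calcium release channel gene Itpr1 averaged 416 ± 64.9 TPM and Plcb4 320 ± 70.2 TPM, and Plcb2 was at 0.

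Prkcd encodes protein kinase C delta, a calcium-independent kinase, and lies at chr14:30595354-30626210 on the minus strand. It was 28.7 TPM in library 2 and 33.5 TPM in library 6, 0.440 TPM in library 5 and 0 in the other 9. The 2 libraries held 1131 and 1016 of 2161 counts in all, and library 5 held 14. The leading transcript by TPM in both was Prkcd-211, annotated as a retained intron, with 51.0% of the gene's TPM in library 2 and 59.3% in library 6. By estimated count the protein-coding Prkcd-201 led in library 6, with 490 counts against 412 for Prkcd-211. Of 9 kinase C genes 7 reached a mean of 1 TPM, among them Prkcz (75.6 ± 88.4 TPM), Prkcb (19.5 ± 19.8 TPM) and Prkca (18.6 ± 25.4 TPM). Prkci was the lowest measured at 1.43 ± 3.36 TPM, and Prkch and Prkcq were at 0.

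Sphk1 encodes a kinase that makes the lipid messenger sphingosine 1-phosphate, and lies at chr11:116530925-116536674 on the plus strand. It was highest in library 12 at 18.9 TPM and in library 2 at 13.2 TPM, its median was 2.08 TPM and it was at 0 in libraries 3, 5 and 9. It had at least 50 counts in 6 libraries. Sphk2, which makes the same product, averaged 4.72 ± 12.8 TPM, most of it from 45.1 TPM in library 9. Sphk1 minus Sphk2 was 0.61 ± 2.90, with Sphk1 higher in 8 of 12 libraries (adjusted p = 0.513, exact permutation test). Of the 9 genes that make, degrade or sense the messenger 8 reached a mean of 1 TPM. The highest was its receptor S1pr1 (79.8 ± 34.9 TPM), followed by the phosphatases Sgpp2 (29.9 ± 26.4 TPM) and Sgpp1 (19.5 ± 17.2 TPM) and the lyase Sgpl1 (10.6 ± 22.3 TPM), and the receptor S1pr3 was lowest (0.0242 ± 0.0837 TPM).

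Ebf1 and Ebf2 encode transcription factors of the early B-cell factor family, and loss of Ebf2 in mice is known to alter zebrin banding. Ebf1 (chr11:44617317-45008091, plus strand) was 60.3, 93.8, 27.2, 42.6, 54.2, 23.0, 33.7, 14.9, 21.2, 28.3, 20.4 and 32.1 TPM by library. Ebf2 (chr14:67233292-67430918, plus strand) was 25.4, 0.200, 55.6, 18.3, 66.5, 20.7, 52.1, 25.8, 48.6, 0.840, 75.6 and 20.6 TPM by library. Ebf1 was highest in library 2, where Ebf2 was lowest, with 7712 and 22.9 expected counts. Ebf1 had at least 1530 counts in every library, while Ebf2 had 68 or fewer in libraries 2 and 11 and at least 1365 in the other 10.

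Transcript estimates differed between the 2 factors. Ebf1-201 led in 8 libraries and carried 12.0 to 33.5 TPM, a narrower range than that of the gene. Much of the high Ebf1 level in library 2 was assigned to Ebf1-202 (37.7 TPM) and Ebf1-203 (32.5 TPM), and Ebf1-203 was at 0 in the other 11 libraries. Ebf2-203 led in 9 of the 11 libraries with at least 50 Ebf2 counts. Ebf2-201 led in library 1 with 87.7% of the gene's TPM, and Ebf2-202 led in library 8 with 88.7%. All 4 EBF genes reached a mean of 1 TPM, with Ebf3 at 5.19 ± 11.2 TPM and Ebf4 at 2.01 ± 6.97 TPM, and 2 had counts in every library. Ebf4 had counts in library 13 alone (24.2 TPM), and 2 libraries held 87.6% of the Ebf3 sum.

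**Figure D4:**
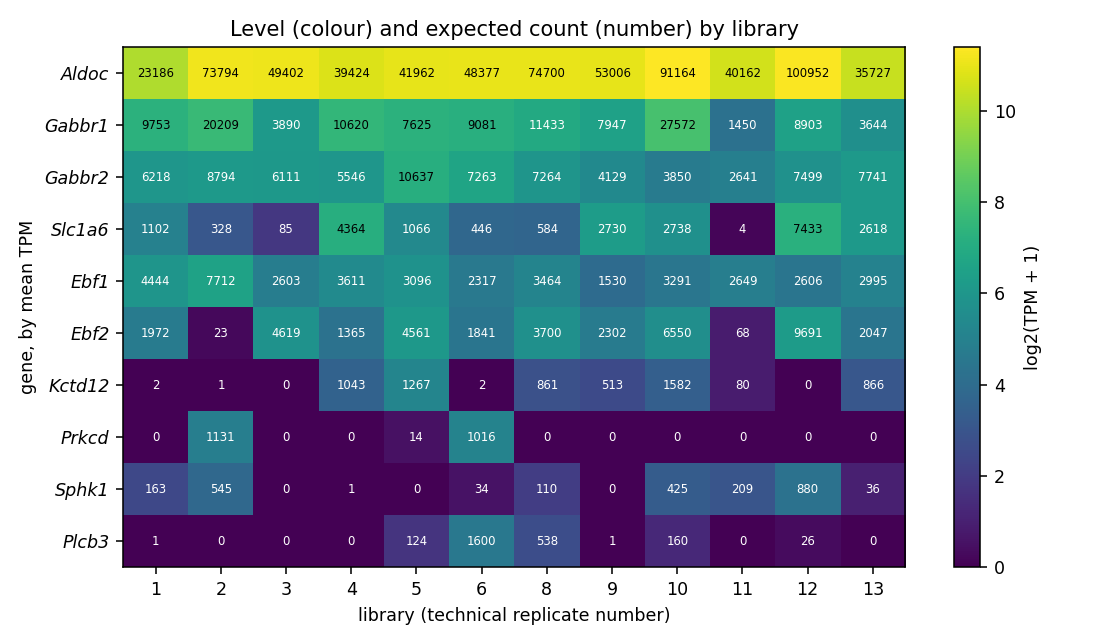
Level of each stripe gene in each library, with log2(TPM + 1) as colour and the rounded expected count as the number. Aldoc, Gabbr1, Gabbr2 and Ebf1 had over 1000 counts in all 12 libraries, whereas Prkcd had its counts in libraries 2, 5 and 6.

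By library, 6 to 10 of the 10 genes had at least 1 count, with all 10 in library 6 and 6 in library 3. Between 6 and 9 had at least 50 counts. Library 11 was lowest of the 12 for Slc1a6 and for Gabbr1, and second lowest for Ebf2. Without Aldoc the stripe genes summed to 84.4 TPM in library 11, against a median of 349 TPM over the 12 libraries. Its total of 16339700 counts and its 9189 genes with a count were within the range of the other libraries. Library 11 also had the lowest granule cell and oligodendrocyte marker sums, 86.0 and 91.3 TPM, and 0 TPM of microglia markers. Some other values in library 11 lay near or above the median over the 12 libraries. Its Bergmann glia and astrocyte sum was 3819 TPM (median 3156) and its interneuron sum 26.0 TPM (median 25.1). Its Purkinje sum was 27345.5 TPM (median 29161.5). Sphk1 was 7.10 TPM there (median 2.08) and Ebf1 28.3 TPM (median 30.2).

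Detection was read against genes of a similar level, as a description. For each gene these were the gene itself and the 500 annotated genes nearest to it in mean TPM, called its neighbours here. Ebf1 had at least 50 counts in 12 libraries, where its neighbours had a median of 9 (quartiles 7 and 11). Gabbr2 had them in 12, where its neighbours had a median of 10 (quartiles 9 and 12). Kctd12 reached 7 libraries beside a median of 4 (quartiles 2 and 6), and Sphk1 reached 6 beside a median of 3 (quartiles 2 and 5). Prkcd had at least 50 counts in 2 libraries, at the lower quartile of its neighbours (quartiles 2 and 6). Slc1a6 and Ebf2 had at least 50 counts in 11 libraries each, and both lay within the quartiles of their neighbours. The picture depended on the count required. At 1 count, Ebf1 (12 libraries), Kctd12 (10) and Sphk1 (9) were at the upper quartile of their neighbours and not above it, and Prkcd (3) was below its lower quartile of 4.

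**Figure D5:**
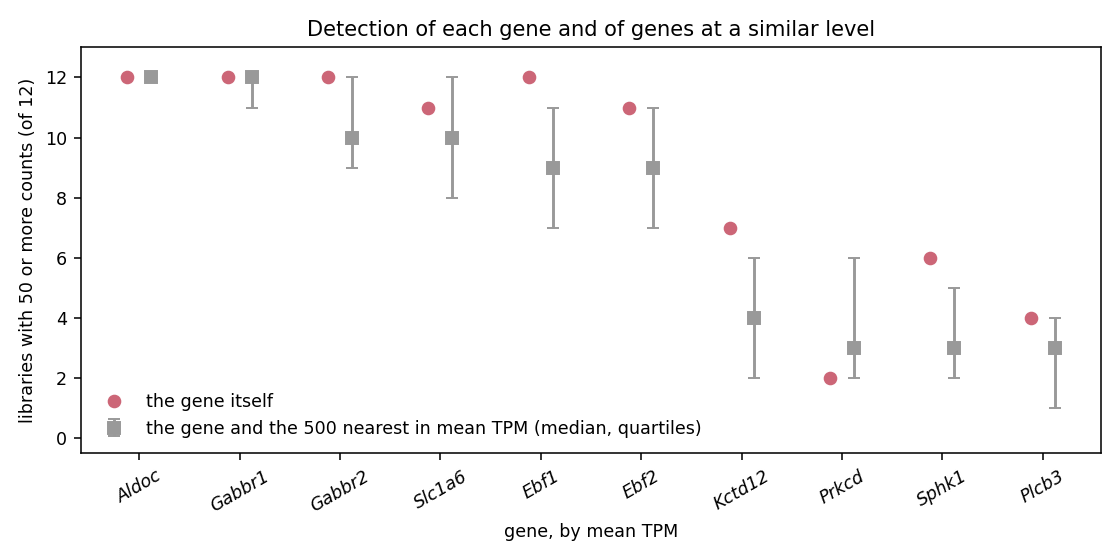
Number of libraries, of 12, in which each stripe gene had at least 50 expected counts (red points), beside the median and quartiles of that gene and the 500 nearest in mean TPM (grey squares and bars). Ebf1, Kctd12 and Sphk1 lay above the upper quartile of their neighbours.

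The spread over libraries was tested in relation to sampling and to abundance. All 10 genes varied more than Poisson sampling allows (chi-square test, adjusted p under 0.05), as did 99.9% of the genes tested, so this count says nothing particular about them. Against the abundance trend in edgeR, 0 of 10 genes were called, where 0.0144% of 13899 genes were. Without adjustment, 1 of the 10 was below 0.05, Aldoc. The share of all genes below that limit was not counted, so this count is not shown to be particular to stripe genes. DESeq2 marked 0 of the 10 as dispersion outliers and 737 genes in all.

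Aldoc had 3.75 times the quasi-dispersion of the edgeR trend at its count, at percentile 99.6 of all genes. Its p was 0.0333 and its adjusted p 0.773 (upper-tail F test in edgeR). In DESeq2 its dispersion was 0.931 times the trend. Its coefficient of variation was 0.237, below the lower quartile of 0.330 among its neighbours. Since Aldoc ranked so high, these neighbours reached down to 232 TPM and were mostly genes of lower level. Ebf1 was steady by each measure. Its quasi-dispersion was 0.190 times the edgeR trend, at percentile 3.11 of all genes, its DESeq2 dispersion was 0.271 times the trend, and its coefficient of variation of 0.595 was below its neighbours' lower quartile of 0.917. Gabbr2 was likewise low, at 0.408 times the trend in edgeR and 0.609 times in DESeq2. Ebf2 was at 1.70 times the trend in both, but its coefficient of variation of 0.726 was below its neighbours' lower quartile of 0.930.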

How the data were processed

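RNA-seq values of 12 libraries were used, 1 group of splits from 1 pool. Libraries were made by Smart-seq, per the labels' protocols, and the deposited text files name mm10 and GENCODE M4 as assembly and annotation. Aligner, quantification program and strand, not given in the sources used here, could not be checked, so overlapping antisense genes cannot be separated. Per the file headers, the authors deposited expected counts and TPM for genes and transcripts, with spike-ins in the TPM total. Symbols, transcript names and coordinates were looked up in GENCODE M21, also mm10 (42462 of 43346 gene identifiers matched, 10 of 10 members and 113 of 113 listed genes), and promoter windows from RefSeq on GRCm38.p6.

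Levels were compared within libraries on log2(TPM + 1) by the exact sign-flip test, in which fold changes of low genes are understated. Variation was tested on expected counts rounded to whole numbers, for 13899 genes averaging 5 or more counts, in edgeR 4.0.16 (TMM, intercept-only glmQLFit, upper-tail F test against the trend) and in DESeq2 1.42.0. The script was tested on simulated data. Correlations used 100000 permutations, two-sided. Adjustments were Benjamini-Hochberg at 0.05. The genes, lists, pairs and tests were chosen with earlier results of these data known. Genes named are the members, their pair partners, and the 4 highest, the lowest measured and any at 0 of each pathway list. Also named are the 4 highest Purkinje markers, markers at 0 throughout, the 5 genes most like Aldoc, and Calb1 beside them. The account of library 11 was picked after the values were seen. Some genes and a pair that this rule takes are not reported here. Depth was 15167400 to 27806000 expected counts per library. Median Spearman correlation between libraries was 0.503, and no 2 libraries held identical values. Alternatives were another pseudocount, TPM over annotated genes, CPM, other count filters and normalisation, and each library left out.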

Additional observations from a re-analysis of the deposited data

How the results depend on the processing

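No comparison between groups was possible because all libraries belong to 1 group, and genes were compared with each other within libraries. The count of 35 member pairs was 35 to 36 with single libraries left out and 32 in the 9 libraries with under 10 gene counts per spike-in count, a subset chosen after seeing the data. The 0 members called for variation stayed 0 in each alternative run. Of 85 single-pair values under other settings 81 kept direction and call and 0 reversed. As CPM, Gabbr1 minus Gabbr2 lost its call (0.39, adjusted p = 0.270), while Gabbr2 minus Slc1a6 (2.85, adjusted p = 0.000892), Slc1a6 minus Ebf1 (-1.89, adjusted p = 0.0295) and Slc1a6 minus Slc1a2 (-3.14, adjusted p = 0.00162) gained one; CPM is not scaled by length (exact permutation tests). Of 204 values with 1 library left out 203 kept both, and Gabbr2 minus Slc1a6 gained a call without library 12 (1.54, adjusted p = 0.0493, exact permutation test).

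The relations with marker sums were unstable. Aldoc with Purkinje markers had r = 0.629 to 0.733 with single libraries left out. Its call was lost in 8 of 12 such runs (without 2, 4, 5, 6, 9, 10, 12 or 13, adjusted p up to 0.126, permutation test). The call was also lost without the 2 farthest libraries (0.654, adjusted p = 0.0540 over the r values only, permutation test) and in the 9 libraries (0.491). With TPM over annotated genes alone the call held (0.791, adjusted p = 0.00652, permutation test). Aldoc with glial markers ranged from -0.781 without library 1 to 0.0285 without library 13, and was 0.0369 with TPM over annotated genes alone. Slc1a6 with Purkinje markers ranged from -0.320 to 0.0623, with its highest value without library 4, and was 0.240 without the 2 farthest libraries and 0.355 in the 9. Slc1a6 with glial markers ranged from -0.340 to -0.0278 and was 0.0314 without the 2 farthest. The cause was not tested. With 12 splits of 1 pool, nothing here bears on variation between mice, and transcript shares rest on the deposited estimates.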
